A study of Mus musculus with 6 samples.

Results

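The oxidative phosphorylation (OXPHOS) genes followed here are the 97 protein-coding genes of the 12436 listed whose symbols begin with mt-, Nduf (but not Ndufaf), Sdha to Sdhd, Uqcr, Cox4 to Cox8, or Atp5. Of these, 13 lie on the mitochondrial genome and 84 on nuclear chromosomes. They were chosen by symbol alone, with no measured value used. Single-cell RNA sequencing was done on tibialis anterior muscle (TAM) of male *Pax7*-Fucci mice (a cross of *Pax7*-Cre mice with a B6;129 line that carries the Fucci2aR cell cycle reporter, allele tm1(Fucci2aR)Jkn, at Gt(ROSA)26Sor), 3 to 5 months old and negative for Cre. Mice received a matched control diet or a hypothyroid diet, which was low in iodine and held 0.15% propylthiouracil (PTU), a drug that blocks thyroid hormone synthesis. The diets started 3 weeks before injury by cardiotoxin (CTX, 50 µg/ml, a membrane-lysing venom toxin), and muscles were taken uninjured (0 days post injury, dpi) or at 5 or 14 dpi. Each of the 6 combinations is 1 library made from 3 pooled mice, so diet, mice, and library cannot be told apart and no difference was tested.

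OXPHOS is carried out in the inner mitochondrial membrane. Complexes I (NADH dehydrogenase), II (succinate dehydrogenase), III (cytochrome bc1), and IV (cytochrome c oxidase) pass electrons to oxygen and, except for complex II, pump protons, and complex V (ATP synthase) uses the proton gradient to make ATP. The mitochondrial genome encodes a few membrane subunits of complexes I, III, IV, and V, and nuclear genes encode all other subunits, so both genomes are needed. Thyroid hormone is a known regulator of mitochondrial content and oxidative capacity in skeletal muscle.

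By complex, the mitochondrial genome gave 7 genes of complex I, 1 of complex III, 3 of complex IV, and 2 of complex V. The nuclear genes were 37 of complex I, 4 of complex II, 8 of complex III, 18 of complex IV, and 17 of complex V. *Ndufa4* and its paralog *Ndufa4l2* were counted with complex IV, and *Cox7a2l*, which helps to join complexes III and IV, was also kept there. The row for *Atp5o* merges 2 gene identifiers, so its values are a sum. Every gene had counts, and the lowest totals over all 6 libraries were 218 for *Cox6b2*, the testis isoform of a complex IV subunit, and 330 for *Cox4i2*.

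The unit of counting was the unique molecular identifier (UMI), a tag that marks 1 captured RNA molecule. Within a library, the UMIs of all cells of a class were added up and given as CPM, counts scaled so that every pool sums to the same total. The first run of cell columns of each file held 11207 cells, with 2286400 to 23503768 UMIs per library and a median of 3635 to 8056 UMIs per cell. Another 9062 columns of the files were left out as of unknown group, because 1679 cells stand in the files of more than 1 group. Whether each first run belongs to its label could not be checked. Between first runs, 12 barcodes were shared and none of them had the same values. Clustering without the OXPHOS genes gave 16 clusters, which were named "-like" from marker genes or, failing that, after their leading genes. The labelled tissue is whole muscle, and both fibro/adipogenic progenitors (FAPs) and myogenic cells were found by their markers (*Pdgfra* and *Dcn*, *Pax7* and *Myod1*). No doublets were removed. All intervals are exact 95% intervals and cover counting error only, since cells of 1 library are not replicates.

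The authors kept cells in which mitochondrial genes took 1% to 15% of UMIs, and in the cells used here this share ran from 1.001% to 15.2%. Levels of mitochondrial transcripts are therefore bounded on both sides in every library. Cells near the lower bound, under 1.5%, made up 3.47%, 2.68%, and 5.28% of control cells at 0, 5, and 14 dpi, and 6.44%, 22.4%, and 12.7% of hypothyroid cells. The hypothyroid library of 5 dpi thus held the largest share of cells next to the bound.

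Among the mitochondrial genes, the make-up of the transcripts in the 2 libraries of 5 dpi stood apart from the other 4 libraries. The gene with the widest spread was *mt-Nd4l*, which encodes a small membrane subunit of complex I and is read from the same messenger RNA as *mt-Nd4*. Its share of mitochondrial UMIs was 0.694%, 0.0813%, and 1.08% in control libraries at 0, 5, and 14 dpi and 0.428%, 2.19%, and 0.922% in hypothyroid libraries. The control library of 5 dpi was the lowest of the 6 and the hypothyroid library of 5 dpi the highest. The same order held within cell classes: over the classes, the share was 0.05% to 0.11% in controls at 5 dpi, 1.79% to 2.75% in hypothyroid cells at 5 dpi, and 0.14% to 1.47% elsewhere. *mt-Atp8* is in the same position with regard to *mt-Atp6*, with which it shares an overlapping reading frame in complex V. Its share was 0.166%, 0.0598%, and 0.191% in control libraries and 0.211%, 0.203%, and 0.254% in hypothyroid libraries, the lowest again in the control library of 5 dpi.

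The coding sequences of these genes are shown because each ends inside the next gene, so that a read at the join can belong to either. They are written in the direction of the plus strand of the GRCm39 mitochondrial chromosome, and capitals mark the bases shared with the next reading frame. *mt-Nd4l* covers positions 9877 to 10173 and shares its last 7 bases with *mt-Nd4*, which covers 10167 to 11544. *mt-Atp8* covers 7766 to 7969 and shares its last 43 bases with *mt-Atp6*, which covers 7927 to 8607.
mt-Nd4l: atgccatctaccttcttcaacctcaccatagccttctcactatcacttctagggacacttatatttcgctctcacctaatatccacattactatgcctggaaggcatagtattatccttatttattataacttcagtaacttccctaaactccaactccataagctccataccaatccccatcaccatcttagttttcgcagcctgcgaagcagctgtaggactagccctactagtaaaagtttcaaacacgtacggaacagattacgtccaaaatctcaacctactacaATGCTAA
mt-Atp8: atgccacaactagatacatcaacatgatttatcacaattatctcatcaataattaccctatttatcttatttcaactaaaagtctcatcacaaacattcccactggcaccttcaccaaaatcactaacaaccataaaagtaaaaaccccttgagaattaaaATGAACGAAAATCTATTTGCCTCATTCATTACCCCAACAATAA

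Set against its partner gene, *mt-Nd4l* held 10.1%, 1.32%, and 13.7% of the UMIs of *mt-Nd4l* and *mt-Nd4* together in control libraries and 7.07%, 32.1%, and 12.9% in hypothyroid libraries. Over cell classes at 5 dpi this share was 0.879% to 1.87% in controls and 29.3% to 36.2% in hypothyroid cells, ranges that are far apart. In the other 4 libraries the class values lay between 3.07% and 17.4%. *mt-Atp8* held 0.758%, 0.242%, and 0.969% of the UMIs of its own pair in control libraries and 0.899%, 0.979%, and 1.26% in hypothyroid libraries. When all cell columns were used, the share of *mt-Nd4l* in mitochondrial UMIs was 0.472% in the control and 1.15% in the hypothyroid file of 5 dpi, closer together but in the same order. How reads over the joined transcripts were assigned was not tested.

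The other mitochondrial genes varied less than *mt-Nd4l* between libraries. *mt-Co1*, the catalytic subunit of complex IV, took 15.2%, 10.6%, and 11.2% of mitochondrial UMIs in control libraries and 16.3%, 22.4%, and 12.1% in hypothyroid libraries. *mt-Co3*, another core subunit of complex IV, took 18.6%, 22.1%, and 18.7% in control and 18.9%, 13.9%, and 19.4% in hypothyroid libraries. *mt-Nd1*, a complex I subunit next to the quinone site, took 5.91%, 6.99%, and 6.08% in control and 5.34%, 3.61%, and 6.03% in hypothyroid libraries. At 0 and 14 dpi the diets were close in all 3 genes, whereas at 5 dpi *mt-Co1* was higher and *mt-Co3* and *mt-Nd1* were lower in the hypothyroid library. *mt-Nd6*, the only protein-coding gene of the opposite strand, took 0.239%, 0.0765%, and 0.124% in control and 0.256%, 0.148%, and 0.123% in hypothyroid libraries. *mt-Nd3*, a small complex I subunit, took 1.54%, 1.10%, and 2.79% in control and 1.65%, 0.630%, and 2.86% in hypothyroid libraries, lowest in the hypothyroid library of 5 dpi. *mt-Atp6*, the proton channel subunit of complex V, had the largest share in all libraries but the hypothyroid one of 5 dpi, where *mt-Co1* was larger, at 19.5% to 24.7% in control and 19.98% to 23.3% in hypothyroid libraries. Over all 6 libraries *mt-Co2*, which takes electrons from cytochrome c, ranged from 11.5% to 16.6%, *mt-Cytb*, the cytochrome b of complex III, from 8.86% to 12.5%, *mt-Nd4* from 4.64% to 6.82%, *mt-Nd2* from 2.19% to 6.35%, and *mt-Nd5* from 0.6999% to 1.22%.

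**Figure D1:**
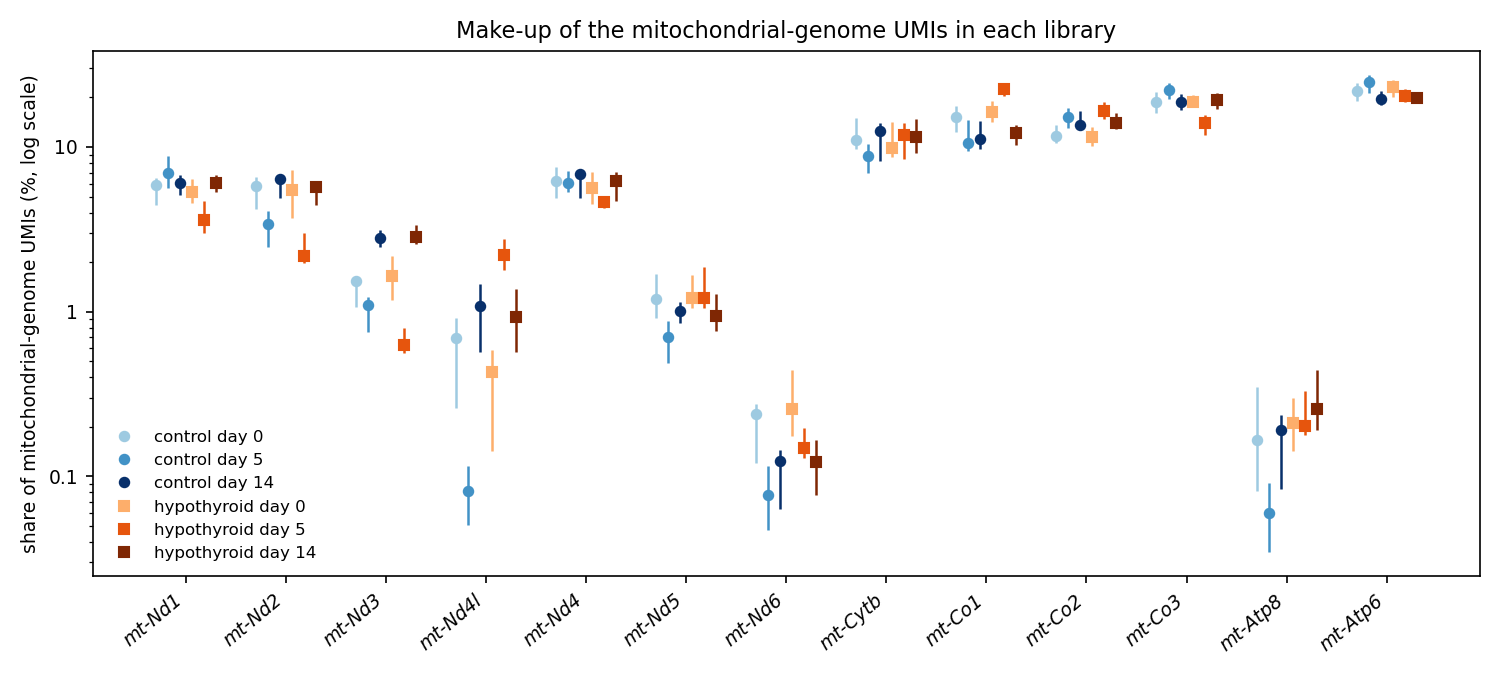
Share of mitochondrial UMIs taken by each of the 13 mitochondrial genes (log axis, percent) in the 6 libraries. Points are libraries and vertical lines the range over cell classes. The points of *mt-Nd4l* run from 0.0813% in the control library of 5 dpi to 2.19% in the hypothyroid library of 5 dpi.

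Nuclear OXPHOS transcripts were most abundant in myocyte-like cells, the class of mature muscle fiber transcripts. In the control library of uninjured muscle their summed level was 54839 CPM (53983 to 55706), or 5.48% of all UMIs of the class. The next was the Myh11/Lmod1 cluster, whose leading genes are those of smooth muscle, at 18630 CPM (17905 to 19376), from only 20 cells. Then came glial-like cells at 11805 (11365 to 12258), endothelial/mural-like cells at 11446 (10992 to 11914), and the Iglc2/Fcmr lymphoid-like cells at 11344 (10719 to 11996). The intervals of the last 3 overlap. Myogenic progenitor-like cells, at 10462 CPM (9975 to 10966), and tenocyte-like cells, at 10368 (9975 to 10772), also overlap, and FAP-like cells were the lowest at 8174 (8090 to 8258).

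The order for the mitochondrial genes was different. Their summed level in the same library was 93823 CPM in the Myh11/Lmod1 cluster, 60094 in endothelial/mural-like cells, 56868 in Iglc2/Fcmr lymphoid-like cells, 56463 in glial-like cells, 51114 in tenocyte-like cells, 46402 in myogenic progenitor-like cells, 33893 in FAP-like cells, and 26326 in myocyte-like cells. Myocyte-like cells were thus the highest for nuclear and the lowest for mitochondrial OXPHOS transcripts. They had 0.480 mitochondrial UMIs per nuclear OXPHOS UMI in control and 0.725 in hypothyroid muscle at 0 dpi, and 0.556 and 0.506 at 14 dpi. In FAP-like cells this ratio was 4.15, 4.53, and 2.16 in control libraries and 4.27, 1.67, and 2.14 in hypothyroid libraries. The bounds on the mitochondrial share touch this order too. In myocyte-like cells, 25% of control and 22.5% of hypothyroid cells at 0 dpi were under 1.5%, and 13.4% and 37.0% at 14 dpi. In the Myh11/Lmod1 cluster of the control library of 0 dpi, 45% of the 20 cells were over 10%, toward the upper bound.

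With injury, nuclear OXPHOS transcripts stood higher in myogenic progenitor-like cells at 5 dpi than in uninjured muscle, under both diets. Their summed level was 10462, 20664, and 19980 CPM in control libraries at 0, 5, and 14 dpi and 9074, 25427, and 23492 CPM in hypothyroid libraries. The 5 dpi level was 1.98 times (1.88 to 2.08) the 0 dpi level in controls and 2.80 times (2.65 to 2.96) in hypothyroid cells. At 0 and 5 dpi the class held only 39 and 104 control cells and 27 and 191 hypothyroid cells. Median UMIs per cell were 4357 and 9634 in the control and 4655 and 13098 in the hypothyroid libraries. In controls, 55 of the 70 nuclear genes with at least 100 UMIs in the pools compared were at least 1.5-fold higher at 5 dpi and 1 was lower, beside 38.0% higher and 27.1% lower of all genes that passed this limit. In hypothyroid cells 68 of 77 were higher and 1 lower, beside 37.7% and 28.8% of all genes. The median ratio was 3.05 for these 77 genes and 1.08 for all genes. Mitochondrial transcripts in the same cells were 46402, 70467, and 43130 CPM in control and 54720, 37018, and 60008 CPM in hypothyroid libraries, so that they were 1.52 times their 0 dpi level at 5 dpi in controls and 0.676 times in hypothyroid cells.

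In FAP-like cells the nuclear sum was 8174, 8744, and 13635 CPM in control libraries and 7632, 11834, and 10421 CPM in hypothyroid libraries. The highest control level of this class was at 14 dpi and the highest hypothyroid level at 5 dpi. At 5 dpi it held only 89 control and 142 hypothyroid cells. The Ltbp2/Tnc cluster, with 2 FAP markers raised but left unnamed, held 325 and 724 cells there. Its median nuclear share per cell at 5 dpi was 1.31% and 1.66%, against 0.804% and 0.991% in FAP-like cells. The FAP-like class may therefore not hold all FAPs of 5 dpi. Between 0 and 14 dpi in controls, the nuclear sum was 1.67 times higher (1.65 to 1.69), and 45 of 82 nuclear genes were at least 1.5-fold higher and none lower, beside 11.9% higher and 12.9% lower of all genes. The mitochondrial sum was 33893, 39638, and 29458 CPM in control and 32582, 19725, and 22337 CPM in hypothyroid libraries. Over classes with at least 20 cells, nuclear sums at 14 dpi were above those at 0 dpi in 7 of 7 classes of the control libraries, by 1.23 to 1.91 times, and in 5 of 5 classes of the hypothyroid libraries, by 1.19 to 2.59 times. These libraries differ in mice as well as in time, and the 2 cannot be told apart.

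Nuclear sums of complexes I, III, IV, and V each stood higher at 14 dpi than at 0 dpi in 7 of 7 classes of the control libraries. That of complex II did in 6 of 7 (0.763 to 1.48 times). In the hypothyroid libraries the nuclear sums of complexes III, IV, and V did in 5 of 5 classes, complex I in 4, and complex II in 3. Mitochondrial genes differed from this. In controls their sums were higher at 14 dpi in 2 of 7 classes for complex I and in 1 of 7 each for complexes III, IV, and V. In hypothyroid libraries they were higher in 2 of 5 for complexes I, III, and IV and in 1 of 5 for complex V. In FAP-like cells of control libraries at 0, 5, and 14 dpi, nuclear complex I genes summed to 2151, 2374, and 3697 CPM, complex III genes to 746, 832, and 1531 CPM, complex IV genes to 2545, 2693, and 4035 CPM, and complex V genes to 2575, 2683, and 4196 CPM. Complex II, which has only nuclear subunits and is also an enzyme of the TCA cycle, summed to 157, 161, and 176 CPM. Among these nuclear sums it had the smallest difference between 0 and 14 dpi in these cells. In myogenic progenitor-like cells of control libraries complex II summed to 199, 402, and 295 CPM and nuclear complex I genes to 2175, 5134, and 4889 CPM.

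**Figure D2:**
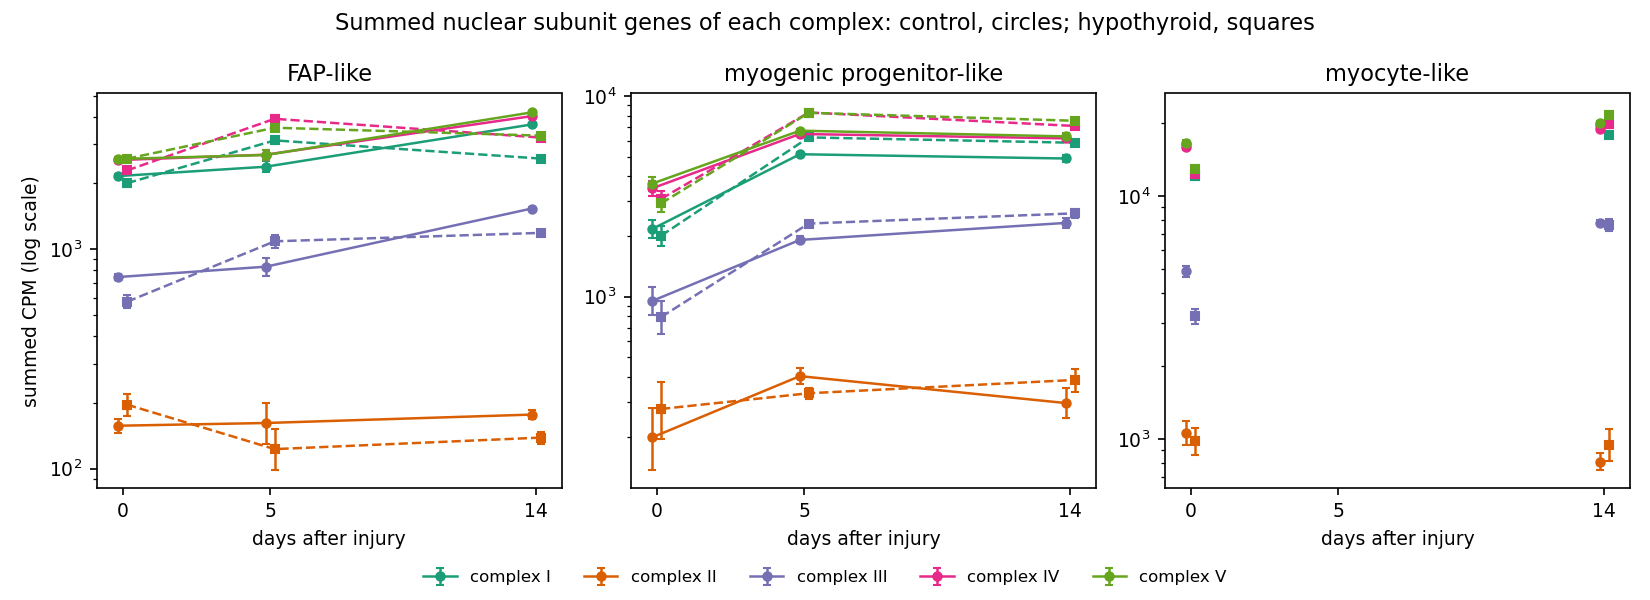
Summed CPM (log axis) of the nuclear genes of each complex at 0, 5, and 14 dpi in FAP-like, myogenic progenitor-like, and myocyte-like cells, with circles for control and squares for hypothyroid libraries. Myocyte-like cells are shown at 0 and 14 dpi only, and complex I there was at 16370 CPM in the control library of 0 dpi against 2151 CPM in FAP-like cells.

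Uninjured muscle was compared between diets first. Nuclear OXPHOS transcripts were lower in the hypothyroid library in 6 of 6 classes, in 4 of them with an interval below 1, though in endothelial/mural-like cells the ratio (0.976) was 1.17 with each cell weighted alike and 1.05 with a size factor from the median gene. The median ratio of all genes was also below 1 in these 6 classes (0.914 to 0.984). The mitochondrial sum was higher in the hypothyroid library in 5 of 6 classes, in 4 of them with an interval above 1 (0.961 to 1.18 over the 6). In endothelial/mural-like cells this ratio (1.02) was 0.976 when only cells with a mitochondrial share under 10% were used. The largest nuclear difference was in myocyte-like cells, at 54839 CPM under the control diet and 41655 CPM under the hypothyroid diet, a ratio of 0.760 (0.741 to 0.779). Mitochondrial transcripts in those cells were 26326 and 30192 CPM, a ratio of 1.15 (1.11 to 1.18). The nuclear ratio was 0.653 (0.598 to 0.712) for complex III, 0.738 for complex I, 0.776 for complex IV, 0.786 for complex V, and 0.924 for complex II. Of 72 nuclear genes that passed the limit, 18 were at least 1.5-fold lower and 0 higher, beside 16.7% lower and 8.56% higher of all genes, so the share that was lower was a little above the background. Their median ratio was 0.758 and that of all genes 0.914. These cells also differed in a fiber gene, with *Acta1*, skeletal alpha-actin, at 31701 CPM under the control diet and 55213 CPM under the hypothyroid diet. Since CPM sum to the same total, a higher level of such a gene lowers the others, and its part in the OXPHOS ratio was not tested. Hemoglobin genes, which mark red blood cells, also differed, with 4 of them summing to 158 CPM under the control diet and 27160 CPM under the hypothyroid diet in these cells at 0 dpi. Without them in the total the nuclear ratio was 0.781 (0.762 to 0.8002) and the mitochondrial ratio 1.18.

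In myocyte-like cells of uninjured muscle, *Uqcrq*, a small subunit of complex III, was at 1022 CPM under the control diet and 409 CPM under the hypothyroid diet, a ratio of 0.4003 (0.317 to 0.502). *Atp5g1*, 1 of 3 genes for the rotating c-ring of complex V, was at 2208 and 1262 CPM, a ratio of 0.572 (0.498 to 0.655). *Cox5b*, a structural subunit of complex IV, was at 751 and 389 CPM, a ratio of 0.518 (0.404 to 0.661). All 3 were below the median of the nuclear genes. *Cox7a2l* was the gene highest in the other direction, at 390 CPM under the control diet and 570 CPM under the hypothyroid diet (ratio 1.46, 1.13 to 1.89), just under the 1.5-fold limit.

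FAP-like cells of uninjured muscle had a nuclear ratio of 0.934 (0.914 to 0.954) and a mitochondrial ratio of 0.961 (0.951 to 0.971). Of 80 nuclear genes, 3 were at least 1.5-fold higher and 9 lower, beside 5.84% higher and 8.23% lower of all genes, shares near the background. With all cell columns 31 OXPHOS genes of both genomes were lower and 4 higher, and the nuclear ratio was 0.810. The shares of all genes were not counted with those columns, so these counts have no background. The mitochondrial ratio was on the other side of 1 with all cell columns (1.16) and with each cell weighted alike (1.01). Core subunits, the 19 nuclear genes listed for the catalytic and electron-carrying parts of the complexes and a few of their nearest partners, had a median ratio of 1.11, and the other 61 nuclear genes one of 0.867. *Ndufv2*, an iron-sulfur subunit of complex I, was at 43.4 CPM under the control diet and 70.4 CPM under the hypothyroid diet (ratio 1.62, 1.27 to 2.07). *Sdhb*, the iron-sulfur subunit of complex II, was at 37.3 and 51.5 CPM (ratio 1.38, 1.04 to 1.82). On the low side were *Uqcrq*, at 102 and 55.5 CPM (ratio 0.545, 0.425 to 0.691), and *Cox8a*, the smallest subunit of complex IV, at 273 and 175 CPM (ratio 0.642, 0.559 to 0.735).

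At 5 dpi, nuclear and mitochondrial OXPHOS transcripts differed between diets in opposite directions in every class compared. The nuclear sum was higher in the hypothyroid library in 9 of 9 classes, by 1.15 to 1.67 times, and the mitochondrial sum was lower in 9 of 9 classes, at 0.441 to 0.655 times the control level. The median ratio of all genes was 0.766 to 1.07 over these classes. The classes come from the same 2 libraries and are not independent of each other. These libraries differed in depth, with a median of 3848 UMIs per cell in the control and 8056 in the hypothyroid library. Its part in the ratios was not tested. In myogenic progenitor-like cells the nuclear ratio was 1.23 (1.21 to 1.25) and the mitochondrial ratio 0.525 (0.521 to 0.530). In the Ltbp2/Tnc cluster, whose leading genes encode extracellular matrix proteins and which was found almost only at 5 dpi, they were 1.30 and 0.524. In FAP-like cells they were 1.35 (1.31 to 1.40) and 0.498 (0.487 to 0.508), from 89 control and 142 hypothyroid cells. This nuclear result turned with the columns used: with all cell columns the nuclear ratio in FAP-like cells was 0.742 and the mitochondrial one 0.951, while in myogenic progenitor-like cells they were 1.15 and 0.691.

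**Figure D3:**
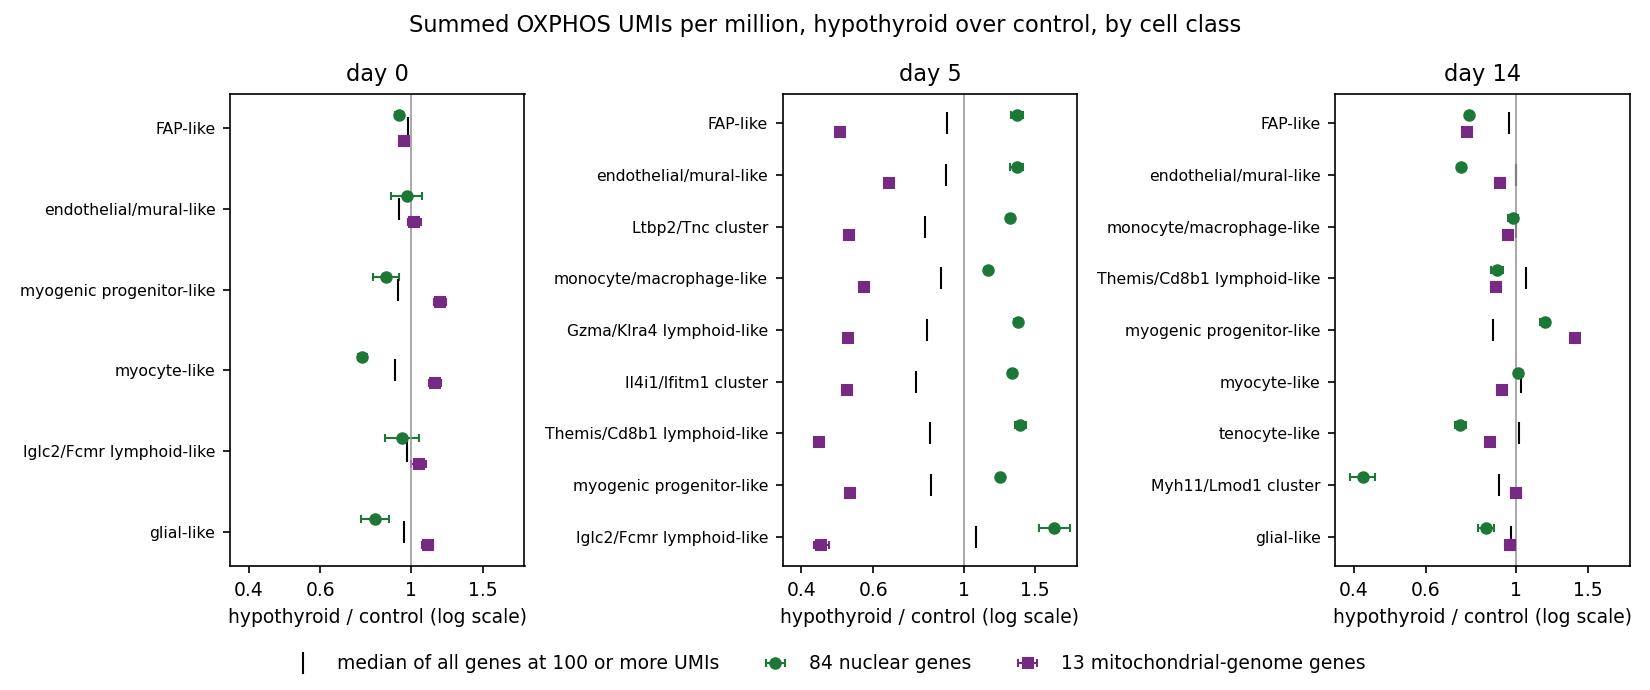
Hypothyroid over control ratio (log axis) of summed nuclear (circles) and mitochondrial (squares) OXPHOS transcripts in each class at 0, 5, and 14 dpi, with 95% counting intervals and the median of all genes as a black tick. At 5 dpi all circles lie above 1 (1.15 to 1.67) and all squares below it (0.441 to 0.655).

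Cells close to the lower bound of the mitochondrial share were more common in the hypothyroid library here. In FAP-like cells the median mitochondrial share per cell was 3.36%, 3.99%, and 2.87% in control libraries and 3.30%, 1.904%, and 2.0003% in hypothyroid libraries. Cells under 1.5% made up 2.25% of control and 34.5% of hypothyroid FAP-like cells at 5 dpi. How many cells the bound had removed from each library was not tested.

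The mitochondrial genes did not move as a block at 5 dpi. *mt-Nd4l* was higher in hypothyroid cells in 8 of 8 classes, by 10.9 to 21.6 times. In FAP-like cells it stood at 233, 45.6, and 304 CPM in control libraries at 0, 5, and 14 dpi and at 142, 522, and 212 CPM in hypothyroid libraries, a ratio of 11.5 (7.59 to 18.1) at 5 dpi. *mt-Nd1* stood at 2030, 2421, and 1818 CPM in control and at 1745, 671, and 1302 CPM in hypothyroid FAP-like cells, a ratio of 0.277 (0.249 to 0.308) at 5 dpi. The first gene was lowest in the control library of 5 dpi, and the second was lowest in the hypothyroid library of 5 dpi. *mt-Co1* was at 4586 CPM under the control diet and 4612 CPM under the hypothyroid diet in FAP-like cells at 5 dpi (ratio 1.01, 0.954 to 1.06), and over 9 classes its ratio was 0.819 to 1.28. Below 1 in every class compared were *mt-Nd1*, *mt-Nd2*, *mt-Nd3*, *mt-Nd4*, *mt-Co2*, *mt-Co3*, *mt-Cytb*, and *mt-Atp6*, from 0.236 for *mt-Nd3* to 0.860 for *mt-Cytb*. *mt-Nd5*, a proton-pumping subunit of complex I, lay on either side of 1 (0.775 to 1.25 over 8 classes), as did *mt-Nd6* (0.716 to 1.14 over 3 classes), and *mt-Atp8* was above 1 in 3 of 3 classes (1.40 to 2.35).

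Of the nuclear genes in myogenic progenitor-like cells at 5 dpi, 13 of 78 were at least 1.5-fold higher in hypothyroid cells and 4 lower, beside 8.33% higher and 27.1% lower of all genes. In the Ltbp2/Tnc cluster 17 of 79 were higher and 3 lower, beside 6.18% and 28.8% of all genes. FAP-like cells had 17 higher and 0 lower of 47, beside 12.6% and 19.3% of all genes. With all cell columns 1 OXPHOS gene of both genomes was higher and 32 were lower there, but the shares of all genes were not counted with those columns. The medians of the nuclear genes were 1.22, 1.26, and 1.42 and those of all genes 0.830, 0.804, and 0.912, in the same order. With a size factor from the median gene in place of the total, which moves all ratios of myogenic progenitor-like cells up by the same factor, 40 OXPHOS genes of both genomes were higher and 6 lower there, against 15 and 12 otherwise. The shares of all genes were not counted with this size factor either.

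The nuclear genes with the highest ratios encode small subunits. *Atp5md*, which helps ATP synthase to pair up, stood at 112, 55.1, and 267 CPM in control and at 85.3, 169, and 267 CPM in hypothyroid FAP-like cells, a ratio of 3.07 (2.04 to 4.77) at 5 dpi. Over 8 classes its ratio was 1.83 to 3.07. *Cox7c*, a complex IV subunit, stood at 244, 160, and 481 CPM in control and at 226, 416, and 412 CPM in hypothyroid FAP-like cells, and its ratio at 5 dpi was 1.73 to 2.61 over 8 classes. The control library of 5 dpi was the lowest of the 6 for both genes. *Ndufb1*, of the membrane arm of complex I, had a ratio of 1.82 to 2.62 over 7 classes and was at 87.0 CPM under the control diet and 218 CPM under the hypothyroid diet in myogenic progenitor-like cells. *Atp5e*, the epsilon subunit of complex V, had a ratio of 1.78 to 2.70 over 8 classes. *Cox4i1*, the general isoform of complex IV subunit 4, was above 1 in 9 of 9 classes (1.06 to 1.68). On the other side, *Uqcrc1* and *Uqcrc2*, which encode the large core proteins of complex III, were below 1 in 5 of 5 classes (0.628 to 0.871) and 6 of 6 classes (0.640 to 0.988).

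Core subunits lay on both sides of 1. Their median ratio at 5 dpi was 1.02 in myogenic progenitor-like cells and 0.980 in the Ltbp2/Tnc cluster, where the other nuclear genes had medians of 1.29 and 1.33. In myogenic progenitor-like cells 1 of the 19 was at least 1.5-fold higher and 4 were lower, against 12 and 0 of the 59 others. In the Ltbp2/Tnc cluster the interval lay above 1 for 8 and below 1 for 7 of the 19. *Sdhc*, a membrane anchor of complex II, was at 88.0 CPM under the control diet and 44.2 CPM under the hypothyroid diet in that cluster (ratio 0.503, 0.444 to 0.569), and *Sdha*, the catalytic subunit, at 75.4 and 46.8 CPM (ratio 0.621, 0.5465 to 0.706). *Ndufs8*, an iron-sulfur subunit of complex I, was at 39.9 and 72.2 CPM (ratio 1.81, 1.56 to 2.11). The other subunits of complex II were above 1 there, *Sdhb* at 1.34 (1.17 to 1.53) and *Sdhd*, the second membrane anchor, at 1.24 (1.05 to 1.46), so the complex was split. Over classes *Sdhc* was below 1 in 5 of 5 (0.409 to 0.5915) and *Sdha* in 5 of 6, while *Sdhb* and *Sdhd* were each above 1 in 4 of 5. In myogenic progenitor-like cells *Atp5a1*, the alpha subunit of the ATP synthase head, was at 705 CPM under the control diet and 452 CPM under the hypothyroid diet (ratio 0.640, 0.588 to 0.698), and *Atp5g2*, another c-ring gene, at 573 and 1095 CPM (ratio 1.91, 1.76 to 2.08). By complex, the nuclear sum in myogenic progenitor-like cells had a ratio of 0.822 (0.737 to 0.917) for complex II and of 1.21 to 1.28 for the other complexes.

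Short transcripts were among those with the higher ratios at 5 dpi, in this gene group and outside it. The nuclear OXPHOS genes are short, with a median transcript of 1046 nucleotides (371 to 7389) against 3421 for all genes, and only 6.52% of all genes are no longer than 1046 nucleotides. In the Ltbp2/Tnc cluster at 5 dpi, the median ratio was 1.38 for OXPHOS genes up to that length and 1.19 for the longer ones, and for the other genes it was 1.22 and 0.79. In myogenic progenitor-like cells the values were 1.31 and 1.11 for OXPHOS genes and 1.37 and 0.81 for the other genes. Short genes outside the group were therefore above 1 as well. They lay below the short OXPHOS genes in the Ltbp2/Tnc cluster and above them in myogenic progenitor-like cells. In all other classes at 5 dpi the short OXPHOS genes had the higher median. Examples are 1.49 against 1.41 in FAP-like cells and 1.55 against 1.39 in Gzma/Klra4 lymphoid-like cells. The longer OXPHOS genes lay above other long genes. These long groups were not matched in length, so a difference beyond length was not tested. Across the 79 genes in the Ltbp2/Tnc cluster, Spearman's rho of ratio and length was -0.40, given as a description, since the points share the same 2 libraries. Summed over the longer OXPHOS genes alone, the ratio was 1.21 in FAP-like and 1.11 in myogenic progenitor-like cells. Length also went with ratios between days. At 14 over 0 dpi in control libraries, short genes outside the group had a higher median than long ones in every class compared. The medians were 1.32 and 1.01 in endothelial/mural-like cells and 1.34 and 0.957 in tenocyte-like cells. Why transcript length went with these ratios was not tested.

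**Figure D4:**
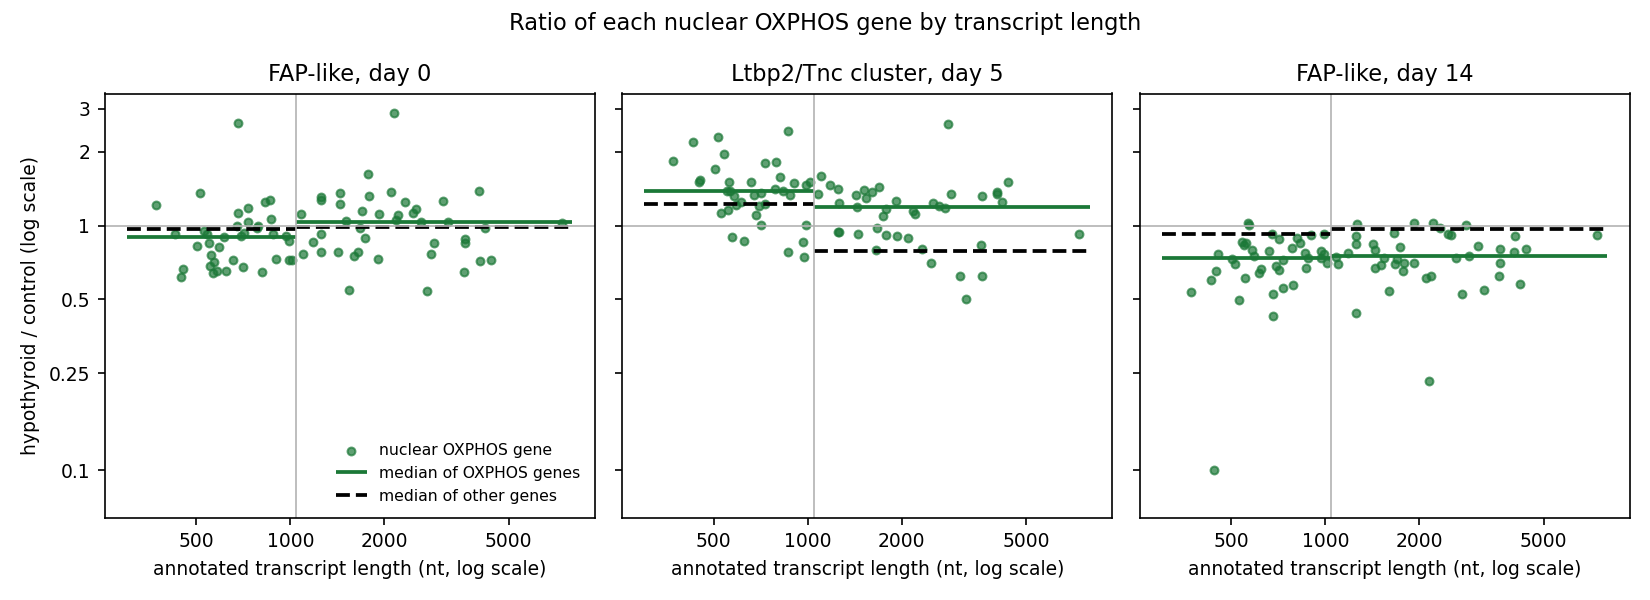
Hypothyroid over control ratio (log axis) of nuclear OXPHOS genes against transcript length in nucleotides (log axis) in FAP-like cells at 0 dpi, the Ltbp2/Tnc cluster at 5 dpi, and FAP-like cells at 14 dpi. Solid lines are medians of the OXPHOS genes on each side of 1046 nucleotides and dashed lines those of other genes; at 5 dpi they are 1.38 and 1.19 against 1.22 and 0.79.

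At 14 dpi the nuclear OXPHOS transcripts were lower in the hypothyroid library in 7 of 9 classes, in 6 of them with an interval below 1, and the mitochondrial transcripts in 8 of 9. Of these 8, the mitochondrial ratio was above 1 under at least 1 alternative in 4: tenocyte-like, glial-like, and myocyte-like cells and the Myh11/Lmod1 cluster. The sum in FAP-like cells was 13635 CPM under the control diet and 10421 CPM under the hypothyroid diet, a ratio of 0.764 (0.757 to 0.771), and the mitochondrial ratio was 0.758 (0.754 to 0.763). These cells also differed in depth, with a median of 5613 UMIs per cell under the control diet and 9256.5 under the hypothyroid diet. The part of depth in these ratios was not tested. In endothelial/mural-like cells the ratios were 0.731 (0.720 to 0.742) and 0.914, and in tenocyte-like cells 0.730 (0.708 to 0.753) and 0.864, the latter 1.01 with each cell weighted alike. With all cell columns the ratios of FAP-like cells were nearer 1, at 0.940 and 0.834. The class pools 2 clusters, with *Pi16* (cluster 0, median 7194 UMIs per cell) and *Smoc2* (cluster 3, median 3132) among their leading genes, in unlike proportions, with 1051 and 458 control cells and 689 and 121 hypothyroid cells at 14 dpi. Within them the nuclear ratio was 0.784 (0.777 to 0.792) and 0.824 (0.805 to 0.843) and the mitochondrial ratio 0.779 and 0.927, all below 1 but nearer to it than in the pool. Myocyte-like cells differed little, at 67176 CPM under the control diet and 68060 CPM under the hypothyroid diet, from 194 and 27 cells. Hemoglobin genes summed to 49973 CPM under the control diet and 34.5 CPM under the hypothyroid diet in these cells, and without them in the total the nuclear ratio was 0.963 (0.943 to 0.982) in place of 1.01. The level of myogenic progenitor-like cells was on the other side, with a nuclear ratio of 1.18 (1.15 to 1.21) and a mitochondrial ratio of 1.39 (1.37 to 1.42), but the nuclear ratio was 0.969 without the 5% of cells with most UMIs and 0.955 with each cell weighted alike.

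In FAP-like cells at 14 dpi, 22 of 82 nuclear genes were at least 1.5-fold lower and 0 higher, beside 12.4% lower and 3.32% higher of all genes. The median ratio was 0.741 for these genes and 0.960 for all genes. In endothelial/mural-like cells 29 of 83 were lower and 0 higher, beside 8.28% and 3.82% of all genes. Of 72 in tenocyte-like cells, 24 were lower and 0 higher, beside 14.0% and 13.2%, and of 67 in myogenic progenitor-like cells 9 were higher and 1 lower, beside 8.85% and 22.2%. None of the 13 mitochondrial genes was past the limit in FAP-like or endothelial/mural-like cells. With a limit of 2-fold, 5 OXPHOS genes were lower in FAP-like cells in place of 22, and with all cell columns 4 were. Neither of these counts has a share of all genes beside it.

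All 5 complexes took part in FAP-like cells at 14 dpi. The nuclear ratio was 0.699 (0.687 to 0.712) for complex I, 0.774 for complex III, 0.784 for complex V, 0.785 (0.725 to 0.850) for complex II, and 0.799 for complex IV. Of complex I, *Ndufc1*, an accessory subunit of the membrane arm, stood at 65.3, 57.0, and 140 CPM in control and at 50.8, 64.1, and 61.3 CPM in hypothyroid libraries, a ratio of 0.439 (0.393 to 0.489) at 14 dpi. The control library of 14 dpi was the only high value of the 6. *Ndufc1* was also below 1 in 7 of 7 classes (0.235 to 0.827). *Ndufs8* was at 32.3 CPM under the control diet and 18.5 CPM under the hypothyroid diet (ratio 0.572, 0.463 to 0.704).

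Of complex IV, *Ndufa4* stood at 127, 302, and 227 CPM in control and at 121, 281, and 113 CPM in hypothyroid FAP-like cells. Its ratio at 14 dpi was 0.498 (0.458 to 0.540), and the diets were close at the other times. *Cox8a* was at 388 CPM under the control diet and 396 CPM under the hypothyroid diet at 14 dpi (ratio 1.02, 0.971 to 1.07). Of complex III, *Uqcrq* stood at 102, 85.5, and 284 CPM in control and at 55.5, 149, and 210 CPM in hypothyroid cells, and it was below 1 in 9 of 9 classes at 14 dpi (0.466 to 0.979). Of complex V, *Atp5g1* was at 221 CPM under the control diet and 142 CPM under the hypothyroid diet (ratio 0.643, 0.596 to 0.694), and *Atp5b*, the catalytic beta subunit, at 373 and 382 CPM (ratio 1.02, 0.972 to 1.08). The 3 c-ring genes encode the same mature protein, and their ratios were 0.643 for *Atp5g1*, 0.724 for *Atp5g2*, and 0.925 for *Atp5g3*. Of the 19 core subunits, 16 were below 1 in FAP-like cells and 18 in endothelial/mural-like cells, with medians of 0.827 and 0.809. Of the other nuclear genes 60 of 63 were below 1 in FAP-like cells, 57 of them with an interval below 1. Below 1 in 9 of 9 classes were also *Atp5g1* (0.239 to 0.971), *Cox5a*, a subunit of complex IV (0.324 to 0.921), and *Atp5pb*, of the peripheral stalk of complex V (0.635 to 0.983).

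The lowest nuclear ratios in FAP-like cells at 14 dpi, among genes that passed the limit, were those of *Cox7a1* and *Cox8b*, muscle isoforms of complex IV, which muscle fibers make in place of the isoforms of other tissues. In FAP-like cells *Cox7a1* stood at 6.33, 5.70, and 61.9 CPM in control and at 9.48, 5.46, and 6.21 CPM in hypothyroid libraries, a ratio of 0.1003 (0.0726 to 0.136) at 14 dpi. *Cox8b* stood at 12.7, 9.50, and 72.6 CPM in control and at 36.6, 2.73, and 16.9 CPM in hypothyroid libraries, a ratio of 0.232 (0.190 to 0.282) at 14 dpi. The control library of 14 dpi was the highest for both genes. *Cox6a2* stood at 28.3, 17.1, and 70.8 CPM in control and at 74.5, 8.18, and 30.1 CPM in hypothyroid libraries. At 0 dpi *Cox6a2* and *Cox8b* were the genes highest in hypothyroid FAP-like cells, with ratios of 2.64 (2.02 to 3.43) and 2.89 (1.95 to 4.28). *Acta1*, a gene of muscle fibers, varied alongside, at 561, 539, and 1292 CPM in control and 2761, 85.9, and 566 CPM in hypothyroid FAP-like cells, and *Ckm*, muscle creatine kinase, at 217, 152, and 598 CPM and 885, 10.9, and 171 CPM.

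Per 100 UMIs of *Acta1*, the muscle isoforms lay close in FAP-like and in myocyte-like cells of the same library. *Cox7a1* was at 1.13 in FAP-like and 0.853 in myocyte-like cells of the control library of 0 dpi, at 4.79 and 3.70 in that of 14 dpi, at 0.343 and 0.342 in the hypothyroid library of 0 dpi, and at 1.10 and 1.46 in that of 14 dpi. *Cox8b* was at 2.26 and 2.37, 5.62 and 5.79, 1.32 and 1.30, and 2.98 and 4.01 in the same order. *Cox6a2* was at 5.03 and 6.77, 5.48 and 6.86, 2.70 and 3.72, and 5.32 and 7.19. The values of *Cox7a1* and *Cox8b* followed the library more than the class, while *Cox6a2* was lower in FAP-like cells in all 4 libraries. Transcription in FAP-like cells and fiber RNA captured with them cannot be told apart. Without the 3 isoforms the nuclear ratio of FAP-like cells at 14 dpi was 0.772 in place of 0.764.

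**Figure D5:**
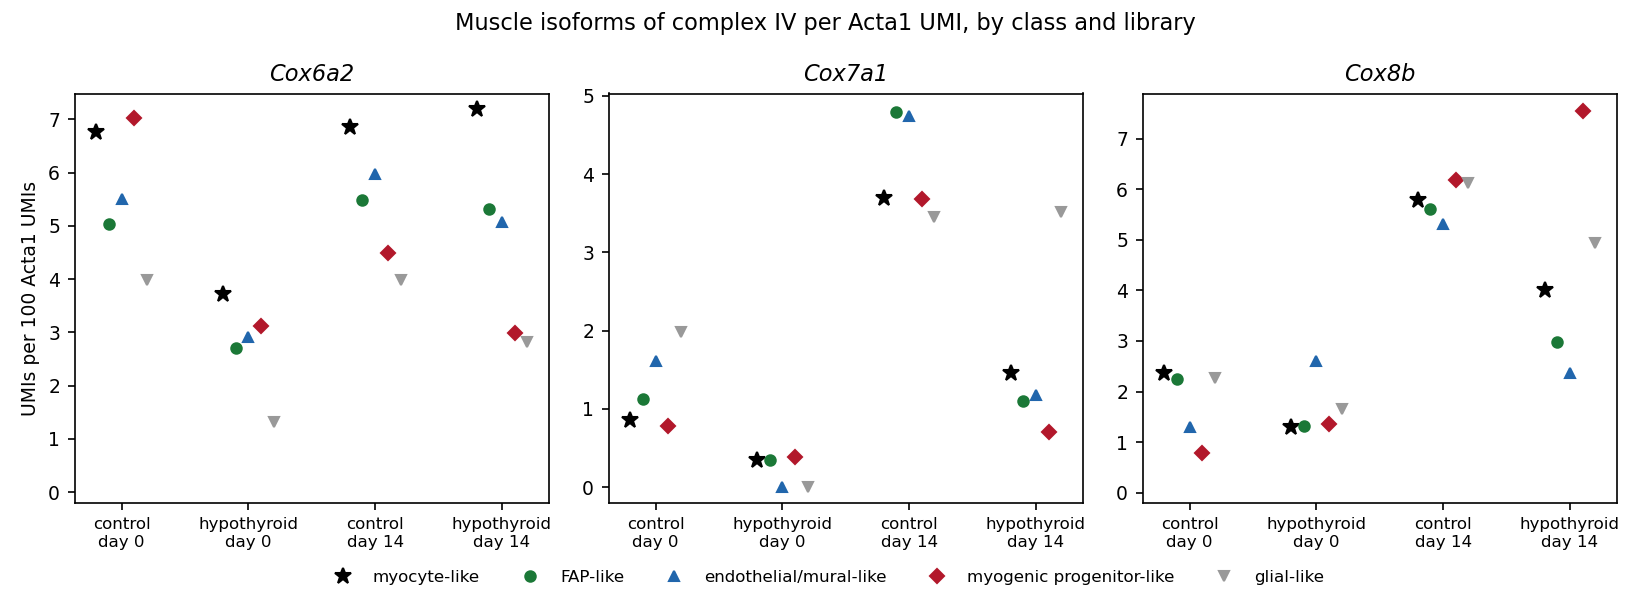
UMIs of *Cox6a2*, *Cox7a1*, and *Cox8b* per 100 UMIs of *Acta1* in 5 classes and the 4 libraries of 0 and 14 dpi. FAP-like and myocyte-like cells of a library lie close, as for *Cox7a1* at 4.79 and 3.70 in the control library of 14 dpi, while smaller classes scatter more, as for *Cox6a2* at 2.99 in myogenic progenitor-like and 7.19 in myocyte-like cells of the hypothyroid library of 14 dpi.

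In myocyte-like cells themselves, *Cox7a1* made up 25.8% (20.9 to 31.1) of the UMIs of *Cox7a1* and *Cox7a2* in control and 25.8% (19.7 to 32.7) in hypothyroid muscle at 0 dpi, and 51.0% (48.2 to 53.7) and 38.7% (32.7 to 45.0) at 14 dpi. The point values were the same at 0 dpi, with wide intervals, and the intervals at 14 dpi did not overlap, although the control share at 14 dpi was 45.1% with all cell columns. *Cox6a2* made up 95.8% and 95.6% of its pair with *Cox6a1* in control and 98.5% and 98.2% in hypothyroid cells at 0 and 14 dpi. *Cox8b* made up 72.3% and 79.9% of its pair with *Cox8a* in control and 88.3% and 80.1% in hypothyroid cells. As levels, *Cox6a2* was at 1594 CPM under the control diet and 2774 CPM under the hypothyroid diet in myocyte-like cells at 14 dpi (ratio 1.74, 1.56 to 1.93), and *Cox7a1* at 860 and 564 CPM (ratio 0.656, 0.525 to 0.811), so the isoforms of 1 complex lay on both sides. *Ndufc1* was low in these cells too, at 1186 and 800 CPM (ratio 0.675, 0.560 to 0.807).

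The promoters of 2 isoform pairs are shown, since the share of the muscle isoform differed between myocyte-like and other cells in both pairs. The sequences are those of RefSeq on GRCm38.p6, from 250 bases before the start site to 50 after it, in the direction of the gene. Capitals mark an E-box (CANNTG), a GC box (GGGCGG), an ETS motif (CCGGAAG, on either strand), or a TATA box (TATAAA). *Cox7a1* is at chr7:30183921-30184220, plus strand, *Cox7a2* at chr9:79759804-79760103, minus strand, *Cox8a* at chr19:7217567-7217866, minus strand, and *Cox8b* at chr7:140900397-140900696, minus strand.
Cox7a1: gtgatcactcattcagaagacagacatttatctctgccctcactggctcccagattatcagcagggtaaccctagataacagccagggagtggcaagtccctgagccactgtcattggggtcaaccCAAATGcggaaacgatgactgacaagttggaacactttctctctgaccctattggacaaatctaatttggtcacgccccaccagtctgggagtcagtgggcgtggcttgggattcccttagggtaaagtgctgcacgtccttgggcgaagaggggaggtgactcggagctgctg
Cox7a2: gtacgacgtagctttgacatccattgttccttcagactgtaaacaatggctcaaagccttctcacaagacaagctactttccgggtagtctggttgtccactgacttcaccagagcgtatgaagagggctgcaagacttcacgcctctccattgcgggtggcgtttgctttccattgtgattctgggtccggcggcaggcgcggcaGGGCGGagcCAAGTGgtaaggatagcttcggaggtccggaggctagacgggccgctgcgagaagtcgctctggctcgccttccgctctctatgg
Cox8a: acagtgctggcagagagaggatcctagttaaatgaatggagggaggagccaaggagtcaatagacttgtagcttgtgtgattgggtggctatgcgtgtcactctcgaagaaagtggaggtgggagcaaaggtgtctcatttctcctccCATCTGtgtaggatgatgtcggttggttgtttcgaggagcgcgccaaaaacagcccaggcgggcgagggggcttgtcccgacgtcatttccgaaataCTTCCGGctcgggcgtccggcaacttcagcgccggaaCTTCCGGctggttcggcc
Cox8b: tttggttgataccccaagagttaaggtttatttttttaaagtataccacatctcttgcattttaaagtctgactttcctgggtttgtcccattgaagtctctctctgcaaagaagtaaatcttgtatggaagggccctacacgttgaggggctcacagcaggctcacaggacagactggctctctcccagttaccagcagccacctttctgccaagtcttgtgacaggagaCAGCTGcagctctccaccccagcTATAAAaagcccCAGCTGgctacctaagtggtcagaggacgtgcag

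In these windows *Cox8b* held a TATA box that begins at base 5 after the annotated start and 2 E-boxes, *Cox8a* 2 ETS motifs and an E-box, *Cox7a1* an E-box, and *Cox7a2* a GC box and an E-box. None of these matches overlapped. Of the 84 nuclear OXPHOS genes, 69 matched the promoter table. Read on both strands, the ETS motif CCGGAAG was in 24.6% of these 69 and in 9.08% of all 27025 promoters, and the NRF1 motif in 7.25% and 0.962%. ETS and NRF1 motifs are known from promoters of respiratory genes. The E-box was in 68.1% and 72.3%, the GC box in 39.1% and 35.6%, the TATA box in 10.1% and 14.1%, and the MEF2 motif in 1.45% and 3.69%. These are matches of letters in a window, and they do not show that a factor binds.

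Other isoforms marked other classes. *Cox4i2*, the lung and smooth muscle isoform of complex IV subunit 4, made up 10.7%, 34.9%, and 9.22% of its pair with *Cox4i1* in the Myh11/Lmod1 cluster of control libraries at 0, 5, and 14 dpi and 23.2% in the hypothyroid library of 14 dpi. In FAP-like cells it was 0.180% or less where it was counted, and 0 of 273 UMIs in the control library of 5 dpi, which allows a share of up to 1.34%. *Ndufa4l2*, a paralog known from hypoxic cells, made up 25.7%, 80.8%, and 58.2% of its pair with *Ndufa4* in the same cluster of control libraries and 78.1% in the hypothyroid library of 14 dpi, and 5.36% to 18.7% in FAP-like cells. *Cox6a2* was the main isoform in a further class: in the plasmacytoid or conventional dendritic-like cells of the control library of 5 dpi it held 61 of 81 UMIs of its pair, 75.3% (64.5 to 84.2). There it stood at 107 UMIs per 100 of *Acta1*, against 2.56 to 9.94 in the other classes of that library, and *Cox7a1* had 0 of 38 and *Cox8b* 0 of 94 UMIs of their pairs. This class held 35 cells and was found in the data after the values were seen.

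The Myh11/Lmod1 cluster at 14 dpi had the lowest nuclear ratio of all classes, 0.420 (0.392 to 0.451), with 56 of 59 genes at least 1.5-fold lower and 0 higher, beside 36.6% lower and 20.1% higher of all genes. *Atp5d*, the delta subunit of complex V, was at 342 CPM under the control diet and 43.7 CPM under the hypothyroid diet (ratio 0.128, 0.0261 to 0.380). The mitochondrial ratio was 0.9999. The leading genes of the cluster differed as well, with *Myh11* at 2865 CPM under the control diet and 306 CPM under the hypothyroid diet and *Acta2* at 5855 and 568 CPM, whereas *Pdgfrb*, of pericytes, was at 468 and 611 CPM. The 160 control and 30 hypothyroid cells of this cluster were therefore not of the same make-up, and a lower level and another mix of cells cannot be told apart.

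Genes that serve OXPHOS without being subunits were followed as lists. In FAP-like cells at 14 dpi, where the median of nuclear OXPHOS genes was 0.741, the lists lay closer to the median of all genes of 0.960, of which 12.4% were lower and 3.32% higher. Assembly factors, which build the complexes, had a median of 0.901 with 4 of 32 lower and 0 higher, and enzymes of the TCA cycle, which supply electrons, one of 0.893 with 1 of 17 lower and 0 higher. Mitochondrial ribosomal proteins, which translate the 13 mitochondrial genes, had a median of 0.952 with 10 of 78 lower and 0 higher. The shares of assembly factors and ribosomal proteins that were lower are near that of all genes. Genes of mitochondrial DNA expression and biogenesis had one of 0.967 with 0 of 12 either way, and carriers and partners one of 0.875 with 2 of 14 lower and 0 higher. *Slc25a4*, the muscle and heart form of the ADP/ATP carrier, was at 309 CPM under the control diet and 148 CPM under the hypothyroid diet in FAP-like cells (ratio 0.480, 0.447 to 0.515), and *Slc25a5*, its general form, at 285 and 392 CPM (ratio 1.37, 1.30 to 1.45), so the isoforms lay on both sides. *Slc25a4* is also a fiber transcript, at 6533 CPM in myocyte-like cells of uninjured control muscle. *Mrpl42* was at 56.1 and 22.8 CPM (ratio 0.407, 0.339 to 0.485), and *Tfam*, the packaging factor of mitochondrial DNA, at 44.9 and 56.6 CPM (ratio 1.26, 1.09 to 1.45).

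At 5 dpi the lists were apart from each other in myogenic progenitor-like cells, where all genes had a median of 0.830, with 8.33% at least 1.5-fold higher and 27.1% lower, and nuclear OXPHOS genes a median of 1.22. Enzymes of the TCA cycle had a median of 0.649 with 9 of 17 at least 1.5-fold lower and 0 higher, among them *Ogdh*, of the oxoglutarate dehydrogenase complex, at 127 CPM under the control diet and 47.2 CPM under the hypothyroid diet (ratio 0.371, 0.293 to 0.468). Mitochondrial ribosomal proteins had a median of 1.17 with 10 of 72 higher and 3 lower, assembly factors one of 1.03 with 6 of 18 higher and 0 lower, genes of mitochondrial DNA expression and biogenesis one of 0.990 with 2 of 11 higher and 3 lower, and carriers and partners one of 1.11 with 1 of 14 higher and 1 lower. In the Ltbp2/Tnc cluster, where all genes had a median of 0.804 with 6.18% higher and 28.8% lower, the TCA cycle list was again the lowest, at 0.726 with 7 of 17 lower and 0 higher. *Cox7a2l* stands both among the OXPHOS genes and in the list of carriers and partners.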

How the data were processed

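The 6 libraries of single cells from TAM were analysed, with groups taken from the labels. Per the labels and the study's methods, the authors aligned reads with Cell Ranger in Partek Flow to mm39, counted UMIs per gene, and removed cells by their UMIs, genes, and mitochondrial share. The deposited values are log2(CPM + 1), scaled by the authors for each cell. UMIs were recovered by taking the most frequent value above 0 of a cell as 1 UMI, after which 99.9353% of 22115901 values lay within 0.05 of a whole number. Only the first run of alphabetically ordered cell columns in each file was used, a choice made after the files were seen.

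Cells were clustered on 20 principal components of 2000 variable genes without the OXPHOS genes (15 neighbours, resolution 0.3, the best of 5 starts). A cluster was named with at least 3 markers raised 2-fold and present in 25% of its cells. UMIs were summed by class, for classes of at least 20 cells in both libraries. A gene counted as higher or lower at 1.5-fold in either direction, provided that it had 100 or more UMIs in the 2 pools. Poisson intervals were used for CPM and Clopper-Pearson intervals for ratios and shares. Transcript lengths are of 12421 of the 12436 genes. The scripts were tested on simulated data.

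Named by rule were the mitochondrial genes, the core subunits, the isoform pairs, and, in each class and day, the 3 members farthest from 1 each way by the end of the interval nearest 1 (for the related lists, the 2 largest). Other genes were named after their values were seen. The genes and lists were chosen with earlier results of these data known. The tools were Python 3.11.15 with scanpy 1.11.5, leidenalg 0.10.2, pandas 2.3.3, scipy 1.17.1, numpy 2.4.6, and matplotlib 3.10.9. Alternatives changed the columns, scaling, cell filter, clustering, UMI recovery, and limits.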

Additional observations from a re-analysis of the deposited data

Results flagged for a closer look

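The diet ratio of a class lay on opposite sides of 1 on different days in 11 cases, with the counting intervals of both days clear of 1. With 1 library per group, none of these differences was tested. For nuclear OXPHOS transcripts of FAP-like cells the ratio was 0.934 at 0 dpi, 1.35 at 5 dpi, and 0.764 at 14 dpi, so that the 0 dpi ratio was 0.6899 times that of 5 dpi and the 5 dpi ratio 1.7709 times that of 14 dpi. The 5 dpi value turned to 0.742 with all cell columns. In endothelial/mural-like cells the nuclear ratio was 1.35 at 5 dpi and 0.731 at 14 dpi, a quotient of 1.8478, and in Themis/Cd8b1 lymphoid-like cells 1.38 and 0.898, a quotient of 1.5337. In myogenic progenitor-like cells it was 0.867 at 0 dpi against 1.23 at 5 dpi (0.7049) and 1.18 at 14 dpi (0.7377), and the last of these was below 1 without the cells with most UMIs.

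For mitochondrial transcripts, myogenic progenitor-like cells had a ratio of 1.18 at 0 dpi, 0.525 at 5 dpi, and 1.39 at 14 dpi, quotients of 2.2448 for 0 against 5 dpi and 0.37756 for 5 against 14 dpi. The Iglc2/Fcmr lymphoid-like cells had 1.04 at 0 dpi and 0.448 at 5 dpi, a quotient of 2.3302. Smaller quotients were found between 0 and 14 dpi in glial-like cells (1.10 and 0.967, 1.1371) and in myocyte-like cells (1.15 and 0.922, 1.2434). When only cells with a mitochondrial share under 10% were used, the 14 dpi ratio was 1.11 in myocyte-like and 1.0038 in glial-like cells, and in the latter it was 1.0044 with each cell weighted alike, so that the sides were no longer opposite.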

How the results depend on the processing

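No paired analysis was possible because there is 1 library per group. Of the summed ratios, counts of genes past the limit, isoform shares, and per-cell shares of the classes followed, 81 values stayed and 85 moved. Ratios and isoform shares stayed if within the counting interval of the value given, and counts if within 1.5 times. Per-cell shares stayed if the median lay between the quartiles of the cells, a wider range than a counting interval. The cause of a move was not tested, except where the alternative itself takes away genes or cells. With all cell columns, FAP-like cells had nuclear and mitochondrial ratios of 0.810 and 1.16 at 0 dpi, 0.742 and 0.951 at 5 dpi, and 0.940 and 0.834 at 14 dpi, and myogenic progenitor-like cells had 1.147 and 0.691 at 5 dpi. The number of genes past the limit was then 31 lower at 0 dpi, 1 higher and 32 lower at 5 dpi, and 4 lower at 14 dpi in FAP-like cells, and 6 higher and 7 lower in myogenic progenitor-like cells at 5 dpi. For counts under this or any other alternative, the share of all genes was not counted. In the control library of 14 dpi the share of *Cox6a2* in its pair was 24.8% in place of 33.2% in FAP-like cells, that of *Cox7a1* 11.3% in place of 18.4%, and that of *Cox8b* 9.85% in place of 15.8%, and *Cox7a1* was at 45.1% in place of 51.0% in myocyte-like cells. The median mitochondrial share per cell of hypothyroid FAP-like cells at 5 dpi was 2.96% in place of 1.904%.

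The other alternatives left the direction of these ratios as it was, except at 0 dpi in FAP-like cells. The values below are given for FAP-like cells at 0, 5, and 14 dpi and for myogenic progenitor-like cells at 5 dpi, leaving out those that did not move. With the mean of the deposited log2 values, the nuclear ratios were 0.798, 1.11, 0.874, and 1.85 and the mitochondrial ones 0.885, 0.487, 0.831, and 0.851. With each cell weighted alike, the nuclear ratios were 0.967, 1.299, 0.666, and 1.26 and the mitochondrial ones 1.01 at 0 dpi, 0.513 at 5 dpi, and 0.576 in myogenic progenitor-like cells. With a size factor from the median gene, the nuclear ratios were 1.48 at 5 dpi, 0.796 at 14 dpi, and 1.48 in myogenic progenitor-like cells, and the mitochondrial ones 0.977, 0.546, 0.790, and 0.633. In the last class 40 genes were then higher and 6 lower. Without the 5% of cells with most UMIs, the nuclear ratios were 0.963 at 0 dpi, 0.747 at 14 dpi, and 1.27 in myogenic progenitor-like cells, and the mitochondrial ones 0.737 at 14 dpi and 0.494 in myogenic progenitor-like cells. With UMIs outside the mitochondrial genome as the total, the mitochondrial ratio was 0.753 at 14 dpi, and myogenic progenitor-like cells had 1.19 and 0.507. With cells under a mitochondrial share of 10%, the mitochondrial ratios at 5 dpi were 0.518 and 0.572 in the 2 classes. With 30 principal components, the nuclear ratios were 1.43 at 5 dpi, 0.787 at 14 dpi, and 1.25 in myogenic progenitor-like cells, and the mitochondrial ones 0.533 at 5 dpi and 0.788 at 14 dpi in FAP-like cells. With a resolution of 0.6 the mitochondrial ratios were 0.520 at 5 dpi and 0.766 at 14 dpi, with OXPHOS genes among the variable genes 0.512 at 5 dpi, and with the smallest value as 1 UMI 0.949 at 0 dpi and 0.476 at 5 dpi.

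Alternatives chosen after seeing the data were the longer transcripts alone, with nuclear ratios of 1.01, 1.21, 0.775, and 1.11, and the sum without *Cox6a2*, *Cox7a1*, and *Cox8b*, with 0.772 at 14 dpi. Within clusters 0 and 3 of the FAP-like class on their own, the nuclear ratios were 0.883 and 1.02 at 0 dpi and 0.784 and 0.824 at 14 dpi, and the mitochondrial ones 0.906 and 0.945 at 0 dpi, 0.520 and 0.448 at 5 dpi, and 0.779 and 0.927 at 14 dpi. With a limit of 2-fold, 0 genes were lower at 0 dpi, 4 higher at 5 dpi, and 5 lower at 14 dpi in FAP-like cells, and 4 were higher and 6 lower in myogenic progenitor-like cells at 5 dpi. Without a limit on UMIs, 15 genes were lower at 5 dpi and 1 higher at 14 dpi in FAP-like cells. For the summed ratios of the other classes, 98 of 202 values under the alternatives, which were also chosen later, stayed within the counting interval and 16 lay on the other side of 1. For the named genes 614 of 714 did so and 13 lay on the other side of 1. All cell columns were tried for FAP-like cells, for myogenic progenitor-like cells at 5 dpi, and for the shares. The depth sets the limit at 5 dpi in FAP-like cells, where 47 of 84 nuclear genes had enough UMIs.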
